A study of Mus musculus with 8 samples.

Results

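The Tcl1 family of the mouse is a cluster of 6 genes on chromosome 12, Tcl1 and its paralogs Tcl1b1, Tcl1b2, Tcl1b3, Tcl1b4 and Tcl1b5. Its members were taken by symbol from RNA-Seq tables of MII oocytes, and all 6 were found among the 8898 genes of the table of ribosome-bound mRNA and among the 10530 genes of the table of total mRNA. The family was selected on total mRNA, because the level of Tcl1b4 and the summed level of the family were already known to differ between old and young oocytes there. The total mRNA of its members is therefore given as a description, without a test.

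The oocytes came from RiboTagF/F;Zp3-Cre females of the C57BL/6 strain. In these mice the Zp3 promoter drives Cre in growing oocytes, so that the ribosomal protein RPL22 carries an HA tag in the oocyte and not in the somatic cells around it. Young mice were 1 month old and old mice were retired breeders of 12 to 15 months, so that breeding history and age cannot be told apart. Ovulation was induced in all females with 5 IU PMSG, followed after 48 h by 10 IU hCG, and MII oocytes were taken from the oviducts 13 h later. There were 2 pools of 200 oocytes per age. Each lysate was divided into input (10%, total mRNA) and the remainder, from which ribosomes were pulled down with an antibody to HA (HA, ribosome-bound mRNA), which gave 8 libraries from 4 pools. The labels do not say how many mice stood behind a pool, and the spread between pools may be partly technical.

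TCL1 proteins are small proteins that bind the pleckstrin homology domain of the kinase AKT and increase its activity. Human TCL1A is best known as an oncogene of T-cell leukaemia, and mouse Tcl1 is stored in the egg and supports the first cleavages. The Tcl1b genes arose by duplication in the rodent lineage and are transcribed in oocytes and early embryos. Fully grown and MII oocytes are transcriptionally silent, so that ribosome-bound mRNA comes from transcripts made earlier.

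In GENCODE release M21 (GRCm38), the family lies at chr12:105146014-105222793, a stretch of 76780 bases. Along the chromosome the order is Tcl1b2 (105146014 to 105155225), Tcl1b1 (105159690 to 105166625), Tcl1b5 (105176344 to 105181145), Tcl1b3 (105191043 to 105195612), Tcl1b4 (105201957 to 105206993) and Tcl1 (105216750 to 105222793). The 5 Tcl1b genes are on the plus strand and Tcl1 is on the minus strand. None of the 6 overlaps another annotated gene. Their coding sequences are 351 to 369 bases long. Between the Tcl1b genes, the coding sequences were 73.9% to 88.4% identical over aligned bases, with Tcl1b3 and Tcl1b5 the closest pair. Tcl1 was 56.3% to 65.7% identical to them.

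The paralogs can be told apart from their start codons onwards. The first 60 coding bases of the 5 Tcl1b genes (GENCODE release M21, 5′ to 3′) are shown because reads must be assigned by such differences. Capitals mark the 38 positions at which not all 5 have the same base.
Tcl1b1: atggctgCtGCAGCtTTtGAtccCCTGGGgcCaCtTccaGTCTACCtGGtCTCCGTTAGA
Tcl1b2: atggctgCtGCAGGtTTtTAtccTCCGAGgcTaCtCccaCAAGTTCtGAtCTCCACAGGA
Tcl1b3: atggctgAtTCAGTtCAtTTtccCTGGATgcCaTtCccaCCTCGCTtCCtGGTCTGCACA
Tcl1b4: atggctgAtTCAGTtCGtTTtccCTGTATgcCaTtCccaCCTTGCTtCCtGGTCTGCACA
Tcl1b5: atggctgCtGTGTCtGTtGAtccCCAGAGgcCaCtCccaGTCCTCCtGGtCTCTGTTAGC
Position by position, Tcl1b3 and Tcl1b4 differed at 3 of these 60 bases and every other pair at more. Further downstream long stretches are common to several paralogs. The longest run shared by a pair of main transcripts was 182 bases, in Tcl1b2 and Tcl1b3, whereas Tcl1 shared no run longer than 11 bases with any Tcl1b transcript.

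Reads of at least 36 bases had been kept and counted without strand, and how reads with several matches were treated is not given in the sources used here. Therefore each longest coding transcript was cut into all windows of 36 bases, and the windows were looked up in the other genes. In Tcl1, 0% of windows occurred in another family member. The percentage was 25.1% in Tcl1b1, 39.7% in Tcl1b2, 43.6% in Tcl1b3, 8.67% in Tcl1b4 and 32.7% in Tcl1b5. No window of the family occurred in an annotated transcript of a gene outside it. Tcl1 is thus free of shared windows and Tcl1b4 has few, whereas the levels of Tcl1b1, Tcl1b2, Tcl1b3 and Tcl1b5 may depend on how shared reads were assigned. Introns, which the counting included, were not compared. The family sum counts shared reads once, whichever member they were given to, provided that reads with several matches were kept.

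**Figure D1:**
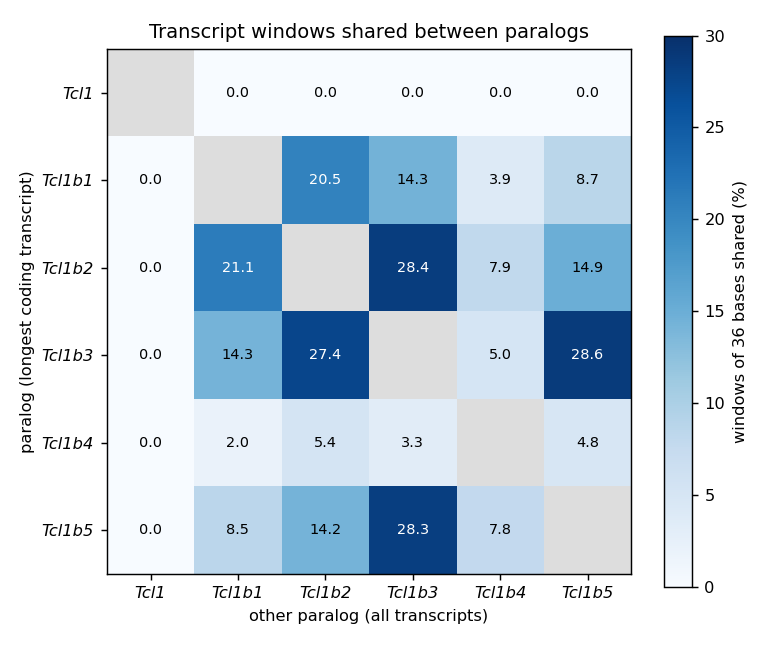
Percentage of 36-base windows of a paralog's longest coding transcript (rows) that also occur in any transcript of another paralog (columns), on a colour scale in percent; the diagonal is left grey. The row and the column of Tcl1 are at 0.0, and Tcl1b3 shares most with Tcl1b5 (28.6%) and Tcl1b2 (27.4%).

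The 5 Tcl1b promoters also hold a common run of 25 bases. It was found in the RefSeq promoters (GRCm38.p6, 250 bases before to 50 after the start site) of 5 of 27025 genes, or 0.0185%, searched on both strands, and these are the 5 Tcl1b genes. The Tcl1 promoter does not contain it. The run is shown in capitals with up to 20 bases on each side, on the plus strand of chromosome 12, because these genes are compared below as a group.
Tcl1b1 (chr12:105159514-105159578): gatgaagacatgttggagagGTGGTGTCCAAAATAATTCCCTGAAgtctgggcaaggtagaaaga
Tcl1b2 (chr12:105146804-105146868): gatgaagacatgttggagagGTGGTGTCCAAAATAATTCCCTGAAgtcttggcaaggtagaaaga
Tcl1b3 (chr12:105190795-105190839): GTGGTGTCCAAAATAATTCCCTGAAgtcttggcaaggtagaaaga
Tcl1b4 (chr12:105202193-105202257): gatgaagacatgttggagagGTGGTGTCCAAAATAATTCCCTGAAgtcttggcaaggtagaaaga
Tcl1b5 (chr12:105176168-105176232): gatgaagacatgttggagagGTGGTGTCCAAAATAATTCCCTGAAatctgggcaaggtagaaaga
The run begins 250 bases before the RefSeq start site in Tcl1b3, where the retrieved promoter itself begins, and between 195 and 156 bases before it in the others. In Tcl1b2 and Tcl1b4 the run lies within the GENCODE gene, because the GENCODE start is upstream of the RefSeq start site. This is a shared sequence, and no measurement of binding or of transcription bears on it here.

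The values are CPM, reads on a gene relative to the reads of its library, scaled by TMM separately over the HA and over the input libraries. Between 37817382 and 59688578 reads lay on the genes of an HA library and between 38276453 and 60052814 on those of an input library. The members had 58 to 46339 reads in the HA and 463 to 22931 in the input libraries, all above the floor of 3 reads, which corresponds to 0.0388 to 0.111 CPM in HA and 0.0435 to 0.0788 CPM in input. Such floors cover counting error only. Of 12 oocyte markers, 12 were in both tables. Their summed level was 12535 to 18204 CPM in old and 11659 to 12441 CPM in young HA libraries, and 9544 to 9693 CPM in old and 10427 to 10638 CPM in young input libraries. In HA this sum was thus higher in both old libraries, as the family sum was, but the lower old value was close to the higher young one. In input it was lower in both, unlike the family sum. Single markers did not all follow the sum. In HA, Gdf9, Nlrp5, Oosp1 and Npm2 had both old values above both young ones, Zp3 had both below, and the others overlapped. In input, Gdf9, Nlrp5, Bmp15, Oosp1 and Mos were lower in both old libraries, Dppa3 was higher in both, and the others overlapped. Of 12 cumulus and granulosa cell markers, 5 were in the HA table, with a summed level of 103 to 145 CPM in old and 201 to 208 CPM in young libraries. In the input table there were 9, at 151 to 398 CPM in old and 201 to 268 CPM in young libraries. The highest of them in HA was Cyp19a1, at 80.4 and 69.7 CPM in old against 142 and 174 CPM in young libraries. In input it was Nr5a2, at 122 and 198 CPM in old against 115 and 91.4 CPM in young libraries. Foxl2, Amh and Ptx3 were in neither table, nor was any of 7 blood markers. The part of these marker levels in the values below was not tested.

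In total mRNA, the family differed between ages mainly through Tcl1b4 and Tcl1b3. Tcl1b4 (ENSMUSG00000079007.3), the member on which the family was selected, was at 146 and 167 CPM in old pools against 9.35 and 21.4 CPM in young pools. The means were 157 ± 14.6 CPM and 15.4 ± 8.56 CPM (SD, n = 2 pools each, as throughout), 10.2 times as high in old oocytes. Both old values lay far above both young values. CPM are relative to a library, so that fewer oocytes with the transcript and less of it per oocyte cannot be told apart. Tcl1b3 (ENSMUSG00000068940.6) was at 149 and 74.9 CPM in old pools against 21.3 and 25.3 CPM in young pools, a ratio of means of 4.80. Its groups did not overlap either, although the old pools differed from each other.

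The other members differed less in total mRNA. Tcl1 (ENSMUSG00000041359.14), the member whose binding to AKT is best known, was at 421 and 279 CPM in old pools against 288 and 253 CPM in young pools. Tcl1b1 (ENSMUSG00000066359.5) was at 235 and 180.2 CPM in old pools against 161 and 137 CPM in young pools. The Tcl1 values of the 2 ages overlapped, and those of Tcl1b1 were separate by a narrow margin. Tcl1b2 (ENSMUSG00000060863.12) was at 80.9 and 175 CPM in old pools against 162 and 105 CPM in young pools. Tcl1b5 (ENSMUSG00000000701.7) was at 15.9 and 49.8 CPM in old pools against 28.3 and 12.2 CPM in young pools. For both of these paralogs the pools of one age differed as much as the ages did. In all, 3 of 6 members had both old values above both young values, and the same held for 16.4% of all genes in the input table, a figure from which nothing is read because input was used for the choice. The median log2 difference of the members, on log2(CPM + 1), was 0.52, against -0.03 for all genes.

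Summed over the 6 genes, total mRNA was at 1048 and 926 CPM in old pools against 669.8 and 554 CPM in young pools, 1.61 times as high in old oocytes. Without Tcl1, the 5 Tcl1b genes summed to 627 and 647 CPM in old pools against 382 and 301 CPM in young pools. Both old sums were above both young sums with and without Tcl1.

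**Figure D2:**
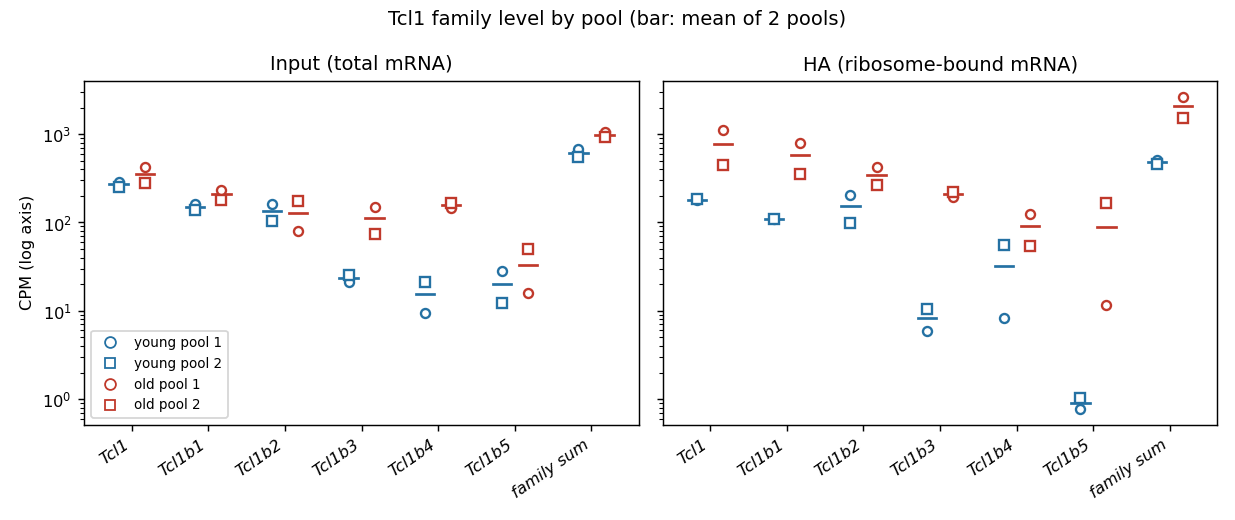
CPM on a log axis of each Tcl1 family gene and of their sum in the input libraries (left) and the HA libraries (right); each open symbol is a pool, red for old and blue for young, circle for pool 1 and square for pool 2, and bars are means of 2 pools. In input the ages are far apart for Tcl1b3 and Tcl1b4, whereas in HA the old values lie above the young ones for every member except Tcl1b4, whose values overlap.

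In ribosome-bound mRNA, the family was more abundant in old oocytes, and with a different set of members leading. Summed over the 6 genes, HA was at 2655 and 1519.5 CPM in old pools against 509.7 and 460.4 CPM in young pools. The means of 2087 ± 803 CPM and 485 ± 34.9 CPM differed 4.30-fold. After TMM the HA libraries did not have equal sums, with 1115494 and 1397708 CPM in old against 771444 and 831404 CPM in young pools. Rescaled to the same sum, the log2 difference of the family sum was 1.41, where it had been 2.05. The old pools differed from each other by more than the young pools did, and yet the lower old sum was well above both young sums. With 2 pools against 2, the exact permutation test (two-sided) of the log2 sums gave p = 0.333, the smallest it can give.

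Tcl1b3 and Tcl1b5 had the highest log2 differences in HA. Tcl1b3 was at 195 and 222 CPM in old pools against 5.92 and 10.5 CPM in young pools, 25.4 times as high by the means of 208 ± 19.0 CPM and 8.20 ± 3.22 CPM. The old pools were alike and far above the young ones. Its log2 difference was 4.55 (standard error 0.84), with an adjusted p of 0.297 in limma with Benjamini-Hochberg adjustment over all 8898 genes. Tcl1b5 was at 11.7 and 166 CPM in the old HA libraries, or 492 and 4482 reads. In the young libraries it was at 0.775 and 1.02 CPM, or 60 and 58 reads. All old values were above the young ones, but the old pools themselves lay more than an order of magnitude apart, so that the size of the difference is poorly known. Its log2 difference was 4.60 (standard error 1.76, adjusted p = 0.313 in limma), 2.74 without old pool 2 and 6.46 without old pool 1. A pseudocount of 1 CPM understates the difference of a gene this low in young oocytes.

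For Tcl1 and Tcl1b1, the young HA values were close together and the old ones were not. Tcl1 was at 1101 and 452 CPM in old pools against 178 and 186 CPM in young pools, with means of 776 ± 459 CPM and 182 ± 5.37 CPM, and a log2 difference of 1.95 (standard error 0.53). Tcl1b1 was at 800.0 and 358 CPM in old pools against 109.9 and 110.1 CPM in young pools, with means of 579 ± 312 CPM and 110.0 ± 0.144 CPM, and a log2 difference of 2.27 (standard error 0.54). The adjusted p was 0.297 for each in limma. For both genes old pool 1 was the highest library, and old pool 2 was still above both young pools. The Tcl1 difference was 1.31 without old pool 1 and 2.59 without old pool 2, and the Tcl1b1 difference was 1.69 and 2.85.

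In HA, the ages were least separated for Tcl1b2 and Tcl1b4. Tcl1b2 was at 421 and 269 CPM in old pools against 207 and 98.0 CPM in young pools, and limma gave a log2 difference of 1.23 with a standard error of 0.57 and an adjusted p of 0.378. For Tcl1b4 the HA levels were 126 and 53.8 CPM in old pools against 8.36 and 55.1 CPM in young pools, and limma gave 1.87 on the log2 scale with a standard error of 1.12 and an adjusted p of 0.545. The Tcl1b2 groups did not touch, whereas young pool 2 had as much ribosome-bound Tcl1b4 as old pool 2. Leaving out young pool 2 gave a Tcl1b4 difference of 3.16, and leaving out young pool 1 gave 0.57. It was 1.26 without old pool 1 and 2.47 without old pool 2. The paralog with the highest ratio in total mRNA was thus the one whose ribosome-bound groups overlapped. The family was selected on the total mRNA of this paralog, and the overlap rests on young pool 2, so nothing is read from this contrast.

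In limma, 0 of 6 members and 0.0% of all genes of the HA table had an adjusted p under 0.05. At an unadjusted p under 0.05, 4 of 6 members (Tcl1, Tcl1b1, Tcl1b3 and Tcl1b5) were higher in old oocytes, compared with 4.28% of all genes, and none was lower, compared with 10.5% of all genes. With the likelihood ratio test of edgeR, which the study's Methods name and which was run here on recovered reads, Tcl1b1, Tcl1b3 and Tcl1b5 had an adjusted p of 0.0479, 0.0422 and 0.0462, and 0.427% of all genes were past 0.05 in this direction. Tcl1 had an adjusted p of 0.0692 in that test. In edgeR's quasi-likelihood test, the adjusted p of these 4 genes was 0.294. The HA libraries came from the same lysates as the input libraries on which the family was selected, so these values are not independent of that choice. The members are not independent of one another either. The Tcl1b genes share windows, and all 6 members were measured in the same pools. Tcl1b5 reached 10 CPM in the old HA libraries only, so a filter at that level keeps it only through the group where it is high. Its call is therefore no support for a difference. The same limits hold for the count of separate groups given next.

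Both old HA values lay above both young values for 5 of 6 members, against 17.2% of all genes in the table. This percentage differed with expression, and so the background differs between members. With the genes split into 10 groups of equal size by mean HA CPM, it was 53.1% in the highest group, which holds Tcl1 and Tcl1b1. It was 34.0% in the group that holds Tcl1b2, 24.6% in that of Tcl1b3 and Tcl1b4, and 17.3% in that of Tcl1b5. The median log2 difference in these groups was 0.61, 0.42, 0.29 and -0.02. Each member's difference was above the median of its own group. The groups were formed on the mean over all 4 libraries, however, so that a high old level itself moves a gene to a higher group. Tcl1b5 stands in its group through the old libraries, at 11.7 and 166 CPM against 0.775 and 1.02 CPM in young pools. These groups are therefore not a background free of the age difference. For Tcl1b3 and Tcl1b5, 99.9% of the genes in the HA table had a lower log2 difference, for Tcl1b1 97.3%, for Tcl1 95.7%, for Tcl1b4 95.1% and for Tcl1b2 87.9%. The median over the members was 2.11, compared with -0.14 over all genes of the HA table.

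**Figure D3:**
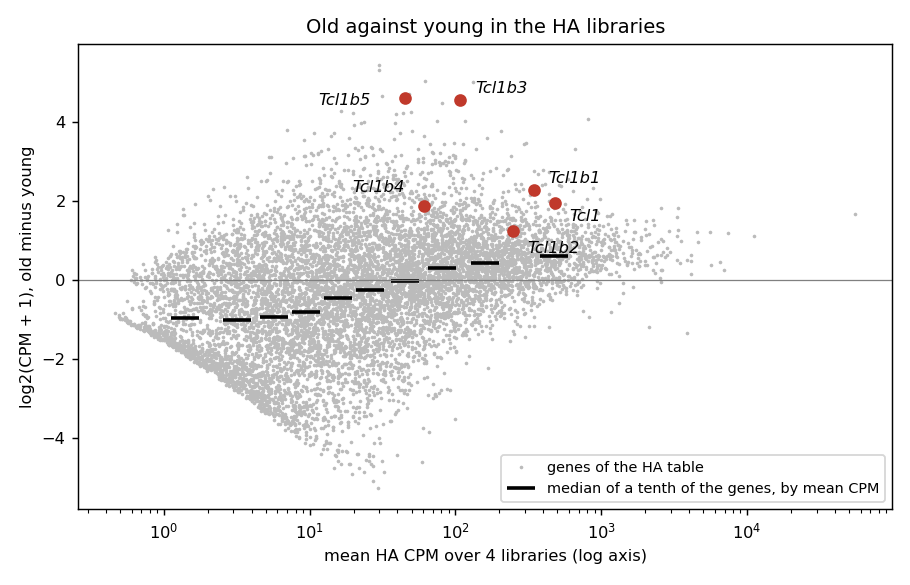
Difference between old and young HA libraries on log2(CPM + 1) (vertical axis) against mean HA CPM over the 4 libraries on a log axis (horizontal axis); grey points are the 8898 genes of the HA table, red points the 6 Tcl1 family genes, and black bars the medians of 10 groups of genes of equal size, sorted by mean CPM. The medians go from -0.97 in the lowest to 0.61 in the highest group, and every family gene lies above the bar of its group, with Tcl1b3 and Tcl1b5 at 4.55 and 4.60.

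The ratio of HA to input in a pool is a measure of ribosome loading per mRNA, on a scale set by separate normalizations of the 2 tables. It was therefore compared as a description and not tested. For the family sum, the ratio was 2.53 and 1.64 in old pools against 0.761 and 0.831 in young pools. A ratio of 1 has no meaning of its own on this scale. On log2(CPM + 1), the median log2 ratio of the 8537 genes in both tables was -0.43 and -0.60 in the old pools and -0.41 and -0.43 in the young pools. Tcl1 had ratios of 2.61 and 1.62 in old pools against 0.618 and 0.733 in young pools, and Tcl1b1 had 3.41 and 1.99 in old pools against 0.683 and 0.806 in young pools. For Tcl1b2 they were 5.21 and 1.53 in old pools against 1.28 and 0.932 in young pools. These 3 genes had old ratios above the young ones in every pool, with the highest ratio in old pool 1. Among all genes, Tcl1 was above 86.9% and 73.5% in the old pools and above 39.3% and 49.2% in the young pools. Tcl1b1 was above 90.9% and 78.4% in the old pools and above 44.9% and 53.9% in the young pools. Both were thus near the middle of all genes in young oocytes and in the upper part in old oocytes.

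Tcl1b5 stood apart in young oocytes. Its HA/input was 0.0274 and 0.0840 in the young pools and 0.734 and 3.33 in the old pools. In the young pools, 0.0703% and 6.45% of the 8537 genes in both tables had a lower value on log2(CPM + 1). Its mRNA was thus present in young oocytes, at 28.3 and 12.2 CPM in input, and at 0.775 and 1.02 CPM in HA. Of its windows, 32.7% are shared with paralogs, and the part of read assignment in this value was not tested. Tcl1b3 followed the same order at a lower contrast, with 0.278 and 0.414 in the young and 1.31 and 2.96 in the old pools.

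Tcl1b4 went the other way. Its HA/input was 0.863 and 0.323 in old pools against 0.895 and 2.57 in young pools, and both old ratios were below both young ratios, by a small margin between old pool 1 and young pool 1. Between the second pools the contrast was wide, as 34.6% of genes had a lower value in old pool 2 and 92.4% in young pool 2. Between the first pools it was not, as the percentages were 54.9% in old pool 1 and 61.0% in young pool 1. Over the family, 5 of 6 members had both old ratios above both young ratios and 1 of 6 had both below. Among the 8537 genes, these patterns occurred in 17.2% and 20.4%. As input is the denominator and was used for the choice of the family, nothing is read from the count or from the direction of Tcl1b4.

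**Figure D4:**
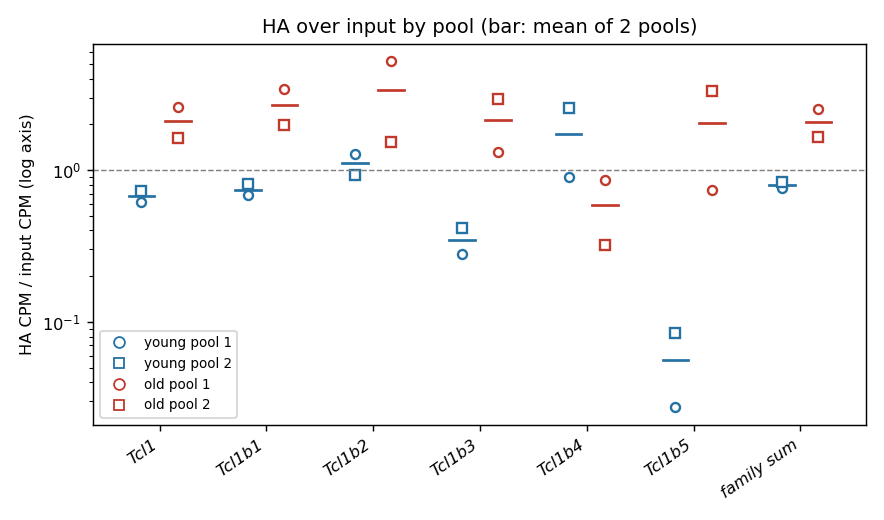
HA CPM divided by input CPM of each Tcl1 family gene and of their sum on a log axis, by pool (red, old; blue, young; circle, pool 1; square, pool 2; bars, means of 2 pools; dashed line, a ratio of 1). The old pools lie above the young ones for every gene except Tcl1b4, and Tcl1b5 in young oocytes is lowest, at 0.0274 and 0.0840.

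The share of a paralog in the family sum does not depend on how libraries were scaled. In input, Tcl1b4 made up 14.0% and 18.0% of the family in old pools against 1.40% and 3.87% in young pools. Tcl1b3 made up 14.2% and 8.09% in old pools against 3.17% and 4.57% in young pools. The shares of Tcl1 and Tcl1b1 were lower in both old pools, with Tcl1 at 35.2% ± 7.11 in old and 44.4% ± 1.90 in young oocytes. Tcl1b2 made up 7.72% and 18.9% in old pools against 24.2% and 19.0% in young pools, so that its share was nearly the same in old pool 2 and young pool 2. In HA, the Tcl1b3 share was 7.33% and 14.6% in old pools against 1.16% and 2.27% in young pools. Tcl1b5 held 0.440% and 10.9% in old pools against 0.152% and 0.222% in young pools. The HA share of Tcl1b4 was 4.75% and 3.54% in old pools against 1.64% and 12.0% in young pools, and overlapped. Tcl1b3 was therefore the paralog whose share was higher in both old pools in total and in ribosome-bound mRNA. The HA share of Tcl1b2 was 15.9% and 17.7% in old pools against 40.6% and 21.3% in young pools.

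**Figure D5:**
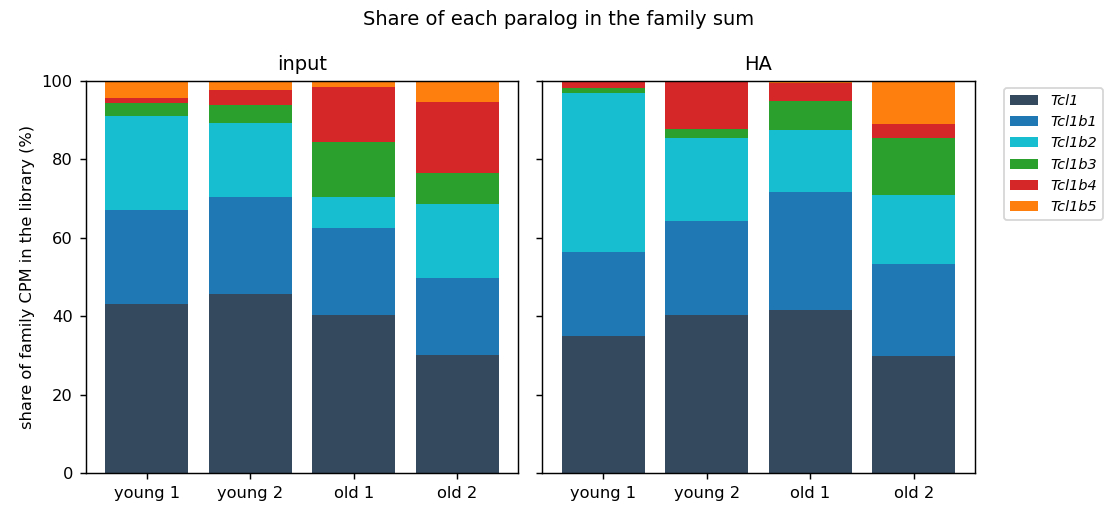
Stacked bars of the share (%) of each Tcl1 family gene in the summed CPM of the family, for the 4 input libraries (left) and the 4 HA libraries (right). Tcl1b3 and Tcl1b4 (green and red) are taller in the old input libraries, Tcl1b3 also in the old HA libraries, and Tcl1b5 (orange) is too thin to see in the young HA libraries, at 0.152% and 0.222%.

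Levels of different genes were compared per kilobase of annotated exon. In young input, Tcl1 (147 ± 13.4 CPM per kb) and Tcl1b1 (143 ± 16.4) led and did not differ beyond their spread, followed by Tcl1b2 (106 ± 31.9). Tcl1b3 (22.3 ± 2.74), Tcl1b5 (19.2 ± 10.8) and Tcl1b4 (10.3 ± 5.72) were lower, and neighbours among these 3 were within their spread. In old input, Tcl1b1 (199 ± 37.0) and Tcl1 (189.9 ± 54.5) again led, and Tcl1b3 (107 ± 50.0), Tcl1b4 (105 ± 9.78) and Tcl1b2 (102 ± 53.0) came next at the same level. Tcl1b5 was lowest, at 31.2 ± 22.7 CPM per kb. The young oocyte thus held 3 abundant and 3 scarce transcripts of the family, whereas in the old oocyte Tcl1b5 was the scarce one.

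The HA levels per kilobase gave another order. In young HA, Tcl1b2 (121 ± 61.1 CPM per kb), Tcl1b1 (106 ± 0.139) and Tcl1 (98.6 ± 2.91) came first, all within the spread of Tcl1b2, although Tcl1b1 and Tcl1 differed by more than their own. Tcl1b4 (21.2 ± 22.1) and Tcl1b3 (7.84 ± 3.08) followed, and Tcl1b5 was at 0.852 ± 0.166. In old HA, Tcl1b1 (557 ± 300.5), Tcl1 (421 ± 249), Tcl1b2 (274 ± 85.9) and Tcl1b3 (199 ± 18.2) were followed by Tcl1b5 (84.0 ± 103) and Tcl1b4 (60.2 ± 34.2). Neighbours in this order were within their spread except Tcl1b3 and Tcl1b5. Exon lengths were taken from GENCODE release M21, which is not the release used for counting. Tcl1 and Tcl1b2 have the same identifier version in both, and the other 4 have a newer one.

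Cytoplasmic polyadenylation elements (CPE) are sites in the 3′-UTR through which CPEB1 controls the translation of stored mRNA during meiosis. The letters TTTTAT and TTTTAAT were searched on the mRNA strand of the longest annotated 3′-UTR of each member. Tcl1 held 1 match in 962 bases, 59 bases from the 3′ end and upstream of a polyadenylation hexamer AATAAA that ends 22 bases from it. The site is shown with the match in capitals.
Tcl1: atgtgtgggaTTTTATgtggttctatttta
The 3′-UTRs of the 5 Tcl1b genes (611 to 657 bases) held 0 matches, and each had the hexamer ATTAAA 17 to 19 bases from the end. For comparison, 70.3% of 8208 genes of the HA table with an annotated 3′-UTR held a match anywhere, and 21.1% of 8083 genes held one in the last 100 bases.

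TCL1 proteins act on AKT, and the mRNAs of AKT, its regulators and its targets were therefore examined. Of 32 genes in this list, 23 were in the HA table, where 1 was higher and 0 were lower in old oocytes at an unadjusted p under 0.05 in limma (4.28% and 10.5% of all genes). The count of higher genes is near this background, and none had an adjusted p under 0.05 in limma or in edgeR's likelihood ratio test. The 1 gene was Foxo3, a transcription factor that AKT phosphorylates and keeps out of the nucleus, at 2357 and 2605 CPM in old pools against 1427 and 1067 CPM in young pools (log2 difference 1.00, adjusted p = 0.297 in limma). The median of the 23 genes was 0.02, against -0.14 for all genes.

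Akt1 and Akt2 encode forms of the kinase itself. In HA, Akt1 was at 17.7 and 40.7 CPM in old pools against 23.8 and 17.9 CPM in young pools. Akt2 was at 24.6 and 12.3 CPM in old pools against 11.8 and 29.4 CPM in young pools. For both genes the old and young HA values overlapped. In input, Akt1 was at 52.6 and 45.8 CPM in old pools against 61.0 and 30.9 CPM in young pools. Akt2 input was at 28.4 and 58.9 CPM in old pools against 21.5 and 31.2 CPM in young pools, and both genes overlapped between ages there too.

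In the input table, 26 genes of the AKT list were present, of which 1 was higher and 1 lower in old oocytes at an unadjusted p under 0.05 in limma, where 2.71% and 3.48% of all genes were. Gsk3a, a kinase inhibited by AKT, was at 143 and 156 CPM in old pools against 79.0 and 66.2 CPM in young pools. Pik3r2, a regulatory subunit of PI3-kinase, was at 0.0184 and 0 CPM in old pools against 4.30 and 2.94 CPM in young pools, with both old libraries under the floor of 3 reads. The adjusted p in limma was 0.778 for both.

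Neighbouring genes were examined to see whether the difference extended along the chromosome. Within 1 Mb of the family lay 9 genes of the input table. Of these 9 genes, 6 were in the HA table, where 2 were higher and 0 lower in old oocytes at an unadjusted p under 0.05 in limma (4.28% and 10.5% of all genes). Glrx5, a mitochondrial glutaredoxin, was the nearest gene in a table on the side of Tcl1b2 (103108 bases away). In HA, Glrx5 was at 137 and 15.5 CPM in old pools against 3.37 and 0.529 CPM in young pools (log2 difference 4.20, adjusted p = 0.328 in limma). Dicer1, the ribonuclease that makes small RNAs, was at 1846 and 1546 CPM in old pools against 955 and 882 CPM in young pools in HA (log2 difference 0.88, adjusted p = 0.315 in limma). Syne3, Atg2b, Papola and Vrk1, which lie among them or on the far side of Tcl1, had overlapping groups. In input, none of the 9 had an unadjusted p under 0.05. Glrx5 was lower in both old inputs, at 7.94 and 1.34 CPM against 8.24 and 10.8 CPM, so that it did not share the input pattern of the family. On the side of Tcl1 the nearest gene in a table was Bdkrb2, 340433 bases away, at 16.2 and 0.381 CPM in old pools against 1.32 and 2.13 CPM in young pools in input.

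Genes with the profile most like the family sum were sought among 5299 genes with a mean of at least 10 CPM in each table, by the root mean square difference of log2(CPM + 1) over the 8 libraries after centring within each table. They were Wasf2, an activator of actin branching (0.192), Rnf169, a ubiquitin ligase of the DNA damage response (0.211), and Dab2, an endocytic adaptor (0.232), where the median over all these genes was 0.994. In HA, Wasf2 was at 625 and 403 CPM in old pools against 171 and 112 CPM in young pools, and in input at 543 and 547 CPM in old pools against 381 and 407 CPM in young pools. For Tcl1b4, the nearest were Olfm1, a secreted olfactomedin (0.806), Omt2a, an oocyte maturation gene (0.849), and 1600002D24Rik (0.905), against a median of 1.69. The profile of the family sum was thus matched more closely than that of Tcl1b4. Olfm1 shared the low young pool 1 of Tcl1b4 in HA, at 3.80 CPM against 20.8 CPM in young pool 2, and was at 71.9 and 26.2 CPM in the old HA libraries.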

How the data were processed

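RNA-Seq of MII oocytes was analysed for 8 libraries (2 old and 2 young pools, each with HA and input). The signal values deposited by the authors are CPM, obtained with Trimmomatic 0.36, HISAT2, HTSeq (GENCODE M11, GRCm38, without strand) and TMM in edgeR. The Methods keep genes at 10 CPM in at least 2 libraries. This is met by 5642 of 8898 HA and 6775 of 10530 input genes, all 6 members included. In HA, Tcl1b5 meets it through the old libraries only (11.7 and 166 CPM, against 0.775 and 1.02 CPM in young). In each library 100% of values were whole multiples of 1 read, so reads were recovered. Members and lists were chosen with earlier results of these data known. HA was tested across all genes with limma (lmFit, eBayes with trend) on log2(CPM + 1), two-sided, with Benjamini-Hochberg adjustment, and tested on simulated data; input was fitted in the same way for list genes outside the family. Fold changes on this scale are understated for low genes. Named genes were all members, Akt1, Akt2, list genes at an unadjusted p under 0.05, the nearest neighbour on each side and 3 genes by likeness each for the family sum and Tcl1b4; an item that the rule also names is not reported here. Columns left out numbered 0. Alternatives were other pseudocounts, filters, scalings, edgeR and DESeq2 on recovered reads, a replicate block and leaving out each pool. Versions were limma 3.58.1, DESeq2 1.42.0 and edgeR 4.0.16 in R 4.3.3, and pandas 2.3.3, matplotlib 3.10.9 and Biopython 1.88 in Python 3.11.15.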

Additional observations from a re-analysis of the deposited data

How the results depend on the processing

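Under the 16 alternatives, each of the 6 members kept a positive HA difference, and 88 of 96 values stayed on their side of an adjusted p of 0.05. The other 8 passed it, namely Tcl1b1, Tcl1b3 and Tcl1b5 in edgeR's likelihood ratio test and in DESeq2, and Tcl1b3 and Tcl1b5 without old pool 1 (adjusted p 0.0203 and 0.0187 in limma, where the lone old pool is assumed to vary like the young ones). With each pool left out in turn, the Tcl1b2 difference ranged from 0.70 to 1.77 on the log2 scale. The number of HA genes past the threshold, 0 in limma (with 381 higher and 930 lower at an unadjusted p below 0.05), was 295 in the likelihood ratio test (38 higher, 257 lower), 508 in DESeq2 (165 and 343) and 0 in the quasi-likelihood test. It ranged from 0 to 634 with each pool left out, and was 393 without old pool 1, 3 without old pool 2 and 634 without young pool 2. The cause was not tested. At an unadjusted p below 0.05, quantile normalization gave 253 higher and 230 lower, rescaling to the same sum 112 and 1283, the Methods' filter 375 and 162, and a filter on the mean (10 CPM) 378 and 66. Rescaling to the same sum moved the median of all genes from -0.14 to -0.68, and the family sum to 1.41 in HA (from 2.05), 0.50 in input and 0.91 for HA/input on the log2 scale.

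With the replicate number as a block, 9 HA genes passed the threshold and no member did. Old and young pools share no more than a number (the correlation of same-numbered deviations was 0.0786), so this was not taken as a pairing.

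With windows of 75 bases, the share found in another member was 3.83% in Tcl1b1, 18.5% in Tcl1b2, 20.6% in Tcl1b3, 0.216% in Tcl1b4 and 8.77% in Tcl1b5. In the order of levels per length, gene span in place of exon length left 2 of 6 members at the same rank in old HA, 3 in young HA, 2 in old input and 6 in young input. The longest transcript left 6, 4, 1 and 6. With 2 pools per age, HA differences carry standard errors of 0.53 to 1.76 on the log2 scale.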
